A study of Caenorhabditis elegans with 2 samples.

Results

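The 7 genes described here act in the unfolded protein responses of *Caenorhabditis elegans*. They were taken by name from the WBcel235 annotation, with no measured value in the rule, and are 7 of the 19973 protein-coding genes of the nuclear chromosomes. Earlier results of these data were known when they were chosen. Binding of the nuclear hormone receptor NHR-20 around them was measured by chromatin immunoprecipitation and sequencing (ChIP-seq) in 1 group of 2 biological replicates. The animals were hermaphrodite L1 larvae of strain OP515, whose genotype is unc-119(tm4063) III; wgIs515. The transgene wgIs515 adds NHR-20 with GFP and FLAG at its C-terminus, and an antibody to GFP was used for the precipitation. Larvae were taken 6 hours after synchronization by bleaching and starvation at the L1 stage. Whole animals were used, so the cell type behind a signal is not known. For the transgene, the promoter and copy number are not stated, and no precipitation from untagged worms was analysed here.

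Unfolded proteins in the endoplasmic reticulum (ER) are sensed by the membrane proteins IRE-1, PEK-1 and ATF-6. IRE-1 is a kinase and nuclease that cuts xbp-1 mRNA, after which the spliced message encodes the active transcription factor XBP-1. PEK-1, the worm homolog of PERK, phosphorylates the translation initiation factor eIF2α, and ATF-6 is a membrane-bound transcription factor. HSP-3 and HSP-4 are the worm homologs of the ER chaperone BiP, hsp-4 being the one widely used as a reporter of ER stress. ATFS-1 senses failing mitochondrial import and activates mitochondrial chaperone genes in the nucleus.

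The summit, the single base at which the authors' caller placed the maximum of a region, was assigned to a gene when it lay inside it or within 3 kb upstream of its annotated start. The authors deposited 30000 candidate regions of the pooled replicates, ranked here by signal, a value their caller gave relative to a control. The 6423 strongest form the thresholded list, which was kept after their analysis of reproducibility. The DNA just upstream of each gene at its strongest summit is printed first, since the results turn on these sites. Each line covers up to 100 bases on either side of the summit, without any annotated exon, on the strand of the gene from 5′ to 3′ (WBcel235, from RefSeq). Capitals mark matches, on either strand, to any of 7 short motifs that are spelled out with their frequencies further on. The stretches lie at chrII:8125013-8125212 (minus strand, ire-1), chrIII:4193693-4193808 (plus, xbp-1), chrX:11415174-11415373 (minus, pek-1), chrX:12480582-12480781 (plus, atf-6), chrX:6092125-6092256 (minus, hsp-3), chrII:7352646-7352757 (minus, hsp-4) and chrV:14193499-14193662 (plus, atfs-1).
ire-1: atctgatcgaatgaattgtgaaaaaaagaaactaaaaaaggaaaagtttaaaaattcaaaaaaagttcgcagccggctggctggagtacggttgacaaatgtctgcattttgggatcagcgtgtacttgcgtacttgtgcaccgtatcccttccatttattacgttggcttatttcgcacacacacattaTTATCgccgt
xbp-1: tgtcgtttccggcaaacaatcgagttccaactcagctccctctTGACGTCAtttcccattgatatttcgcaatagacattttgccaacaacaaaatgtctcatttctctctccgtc
pek-1: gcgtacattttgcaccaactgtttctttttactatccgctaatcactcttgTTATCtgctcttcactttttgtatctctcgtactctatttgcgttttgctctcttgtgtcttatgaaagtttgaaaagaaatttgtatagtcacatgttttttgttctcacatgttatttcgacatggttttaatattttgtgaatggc
atf-6: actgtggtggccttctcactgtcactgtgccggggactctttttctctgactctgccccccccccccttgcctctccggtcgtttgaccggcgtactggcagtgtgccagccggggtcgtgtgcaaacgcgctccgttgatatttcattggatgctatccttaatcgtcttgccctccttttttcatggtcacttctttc
hsp-3: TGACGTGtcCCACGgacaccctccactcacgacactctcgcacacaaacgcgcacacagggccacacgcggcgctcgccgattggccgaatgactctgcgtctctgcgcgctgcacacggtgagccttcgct
hsp-4: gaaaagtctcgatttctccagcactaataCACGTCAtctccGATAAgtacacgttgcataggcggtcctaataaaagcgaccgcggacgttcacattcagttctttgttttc
atfs-1: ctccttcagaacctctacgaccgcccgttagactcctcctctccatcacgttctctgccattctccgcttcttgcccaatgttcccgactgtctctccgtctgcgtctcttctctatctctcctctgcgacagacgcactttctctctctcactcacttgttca

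Of the 7 genes, 6 had at least 1 thresholded summit, against 31.9% of all protein-coding genes in windows built the same way. The exception was hsp-4. All 7 thresholded summits of these genes lay upstream of the annotated start, 2 of them at ire-1 and 1 at each of the other 5 genes. The share of upstream summits over all protein-coding genes is not given here, so this placement is not shown to be particular to these genes. In the narrower promoter window, from 1000 bp upstream to 300 bp downstream of a transcript start, 6 of the 7 genes had a thresholded summit, against 20.6% of all protein-coding genes. The median signal of the strongest thresholded summit was 368 over the 6 genes and 208 over the 6365 protein-coding genes with such a summit. The strongest thresholded summit also lay nearer to a transcript start, at a median of 133.5 bp against 666 bp over those 6365 genes. The windows of the 7 genes were longer, with a median of 6957 bp against 5027 bp for all protein-coding genes. The part of window length in the counts was not tested.

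**Figure D1:**
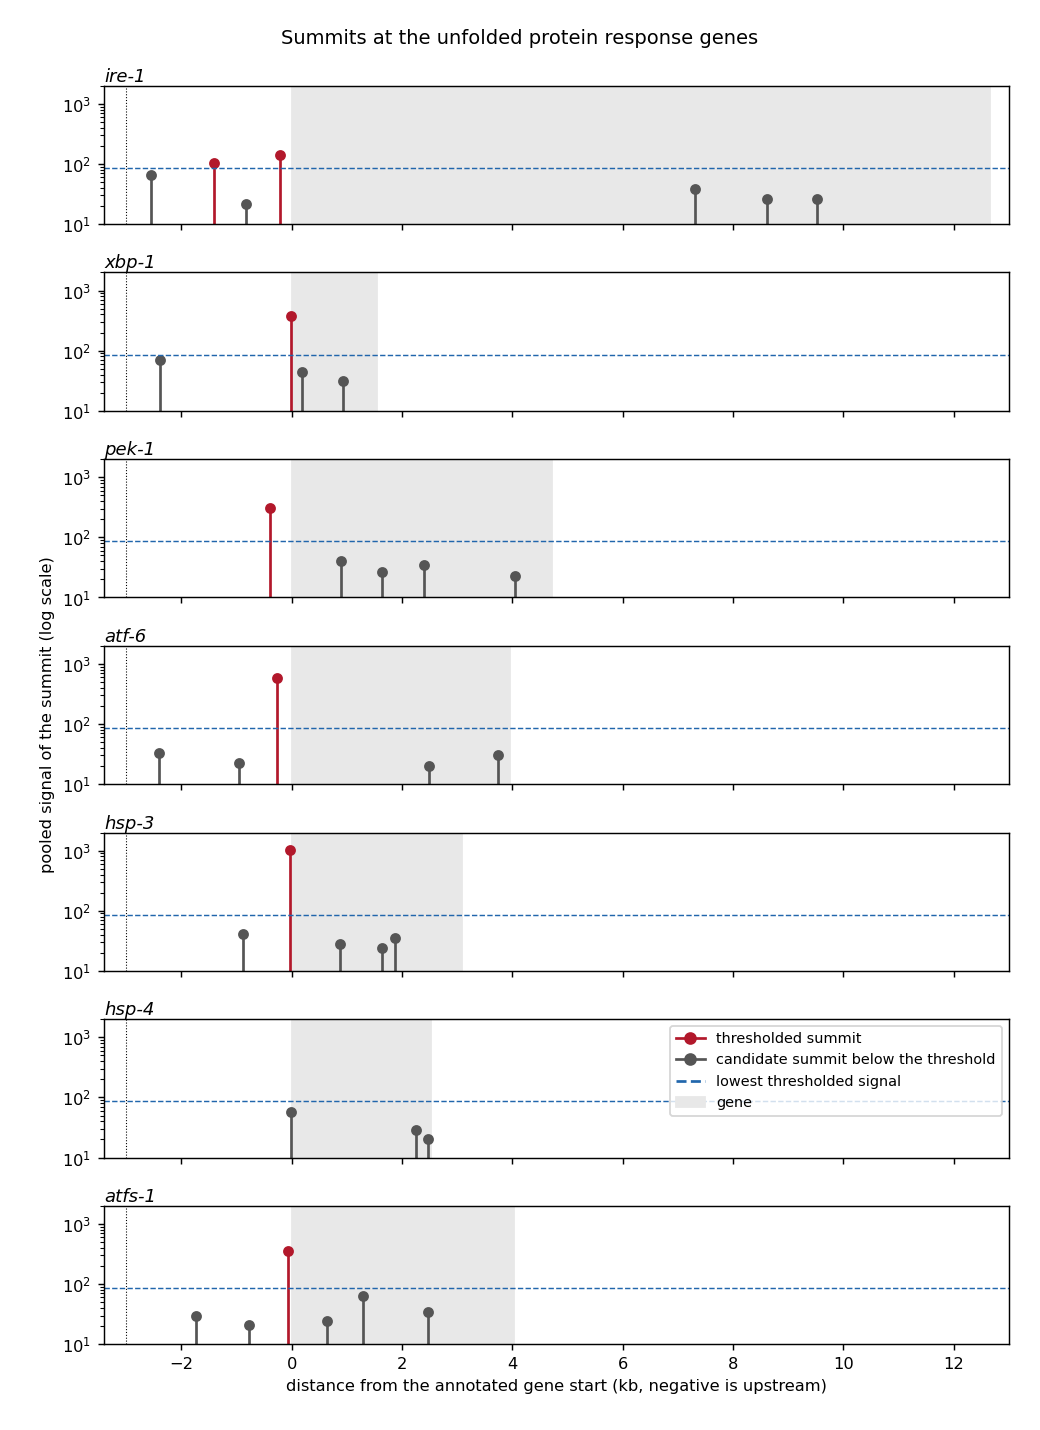
Pooled signal of every candidate summit (log scale) against its distance in kb from the annotated gene start, 1 panel per gene. Red points are thresholded summits, dark grey points other candidates, the shaded block is the gene, the dashed line the lowest thresholded signal (85.96) and the dotted line the upstream limit of 3 kb; each red point lies upstream of its gene, and hsp-4 has none.

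The genes differed widely in strength. By pooled signal the order was hsp-3, atf-6, xbp-1, atfs-1, pek-1, ire-1 and hsp-4, and replicate 1 gave the same order. In replicate 2 pek-1 stood ahead of atfs-1. The ranks of xbp-1 (1193 and 880 in replicates 1 and 2), atfs-1 (1213 and 1132) and pek-1 (1956 and 1089) overlapped between genes, so those 3 were not separated beyond the spread of the replicates. The ranks of hsp-3, atf-6, ire-1 and hsp-4 did not overlap with those of any other of these genes.

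**Figure D2:**
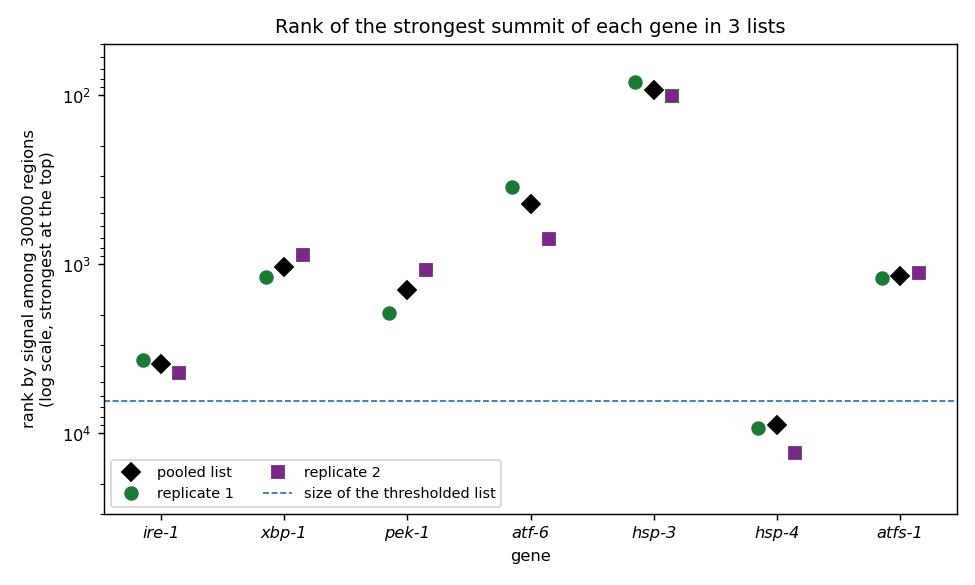
Rank among 30000 regions (log scale, strongest at the top) of the strongest pooled summit of each gene (black diamonds). Green circles and purple squares are the summits matched to it within 200 bp in replicates 1 and 2. The dashed line is the size of the thresholded list, 6423; the 3 points of hsp-4 lie below it and all points of the other genes above it.

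Among the ER sensors, atf-6 (WBGene00000222, X, 12480948 to 12484904, plus strand) had the strongest summit. It lay 266 bp upstream of the start in a region from 12480510 to 12480813, with a pooled signal of 579 and rank 444. Its signal was 413 in replicate 1, where it ranked 351, and 172 in replicate 2, where it ranked 707. Signals are on a scale of their own in each list, so the ranks and not the signals are compared between replicates. Of the 6365 genes with a thresholded summit, 10.1% had a stronger one than atf-6. The other 4 candidate summits of atf-6 were weak, with signals from 20.01 to 32.8.

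pek-1 (WBGene00003970, X, 11410176 to 11414887, minus strand) had its thresholded summit 387 bp upstream of the start (region 11415169 to 11415374, signal 312, rank 1424). The signal there was 162 in replicate 1 and 135 in replicate 2, with ranks of 1956 and 1089. In replicate 1 a further strong summit lay 151 bp upstream, with a signal of 161 and rank 1983. The pooled list held no separate summit within 200 bp of it. Each replicate had 2 pek-1 summits among as many of its strongest regions as the thresholded list holds. The position of the second one in replicate 2 is not given here. The 4 remaining pooled candidates of pek-1 all lay inside the gene, with signals from 23.1 to 40.8.

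ire-1 (WBGene00002147, II, 8112243 to 8124910, minus strand) was the weakest of the sensors and the only one of the 7 genes with 2 thresholded summits. The stronger lay 203 bp upstream (region 8124915 to 8125310, signal 140, rank 3910) and the weaker 1412 bp upstream (region 8126124 to 8126519, signal 104, rank 5293). The first had signals of 98.9 in replicate 1 and 44.7 in replicate 2, with ranks of 3701 and 4401. The second had signals of 87.8 in replicate 1 and 29.9 in replicate 2, with ranks of 4199 and 6731, so in replicate 2 it fell outside the 6423 strongest regions. Its nearest other transcript start, 536 bp away, belongs to the non-coding RNA gene C41C4.14. Of the genes with a thresholded summit, 70.8% had a stronger one than ire-1. Another upstream candidate of ire-1, 2543 bp from the start, had a signal of 64.9, under the threshold. A weak one lay 827 bp upstream (signal 21.6), and 3 lay in introns 7304 to 9528 bp from the start (signals 25.9 to 38.7), where they were also in the window of unc-105, a channel subunit gene.

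xbp-1 (WBGene00006959, III, 4193809 to 4195358, plus strand), the target of the IRE-1 nuclease, had a thresholded summit 16 bp upstream of its start (region 4193691 to 4193901, signal 381, rank 1035). The signal was 226 in replicate 1 and 154 in replicate 2, with ranks of 1193 and 880. Of the genes with a thresholded summit, 22.8% had a stronger one. The next candidate of xbp-1, 2378 bp upstream with a signal of 68.9, lay 117 bp upstream of the start of its neighbour dnj-16. The other 2 candidates lay in coding exons, with signals of 44.3 and 30.7.

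Among the 7 genes, xbp-1 alone lay close to the gene of the tagged receptor. It starts 39410 bp from the start of nhr-20, whose coding sequence is also carried by the transgene of this strain. Within 50 kb of the nhr-20 start there were 16 thresholded summits and 53 candidates, against 6.77 thresholded and 32.5 candidate summits per 100 kb on the rest of chromosome III. The median signal of the thresholded summits was 317 in that interval and 169.6 on the rest of the chromosome, and 30.2% of the candidates were thresholded there against 20.9%. Over all candidates the median signal was 36.03 in the interval and 32.1 on the rest. The xbp-1 summit was the seventh strongest of the 16. From 0 to 10 kb from the nhr-20 start there were 7 thresholded summits, from 10 to 20 kb 0, from 20 to 30 kb 1, from 30 to 40 kb 4 and from 40 to 50 kb 4. These counts take both sides of the nhr-20 start together, and the 4 from 40 to 50 kb all lay on the side away from xbp-1. The part of extra nhr-20 sequence in the xbp-1 signal was not tested, since the extent of the inserted DNA is not given in the sources used here. Without xbp-1, 5 of the other 6 genes had a thresholded summit, against 31.9% of all protein-coding genes.

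**Figure D3:**
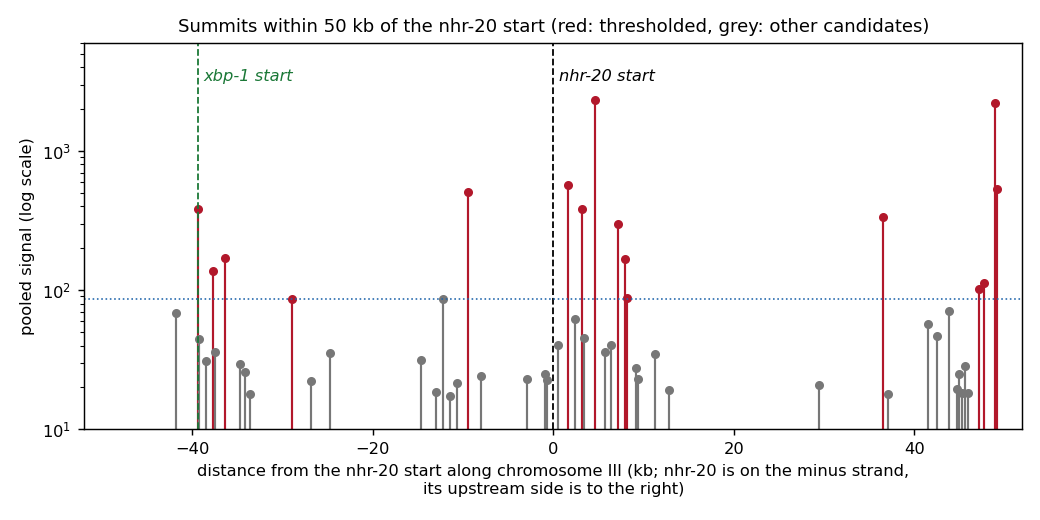
Pooled signal (log scale) of the 53 candidate summits within 50 kb of the nhr-20 start, against distance along chromosome III in kb. Red marks the 16 thresholded summits and grey the others, the vertical dashed lines are the starts of xbp-1 and nhr-20, and the dotted line is the lowest thresholded signal; the highest points lie at 4663 bp on the upstream side of nhr-20 (signal 2318) and at 48930 bp (signal 2226).

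The BiP genes stood at opposite ends of the order. hsp-3 (WBGene00002007, X, 6089028 to 6092124, minus strand) had a summit 33 bp upstream of its start (region 6091882 to 6092361) with a pooled signal of 1034 and rank 94. The signal was 662 in replicate 1 and 390 in replicate 2, with ranks of 84 and 101. Only 134 of the 6365 genes with a thresholded summit had a stronger one, 2.11% of them. The summit also lay in the window of C15H9.5, 1143 bp upstream of that gene's start. The 4 other candidates of hsp-3 had signals from 24.1 to 41.4.

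hsp-4 (WBGene00002008, II, 7350112 to 7352645, minus strand) had its strongest candidate at nearly the same place, 13 bp upstream of the start (region 7352460 to 7352855), but with a pooled signal of 57.9 and rank 8995. The lowest thresholded signal was 85.96. The hsp-4 summit had a signal of 37.1 in replicate 1 and 17.4 in replicate 2, with ranks of 9340 and 13158, so neither replicate placed it among its 6423 strongest regions. In replicate 2 the strongest region in the hsp-4 window lay elsewhere, 201 bp inside the gene, with a signal of 19.0 and rank 11662. The other 2 candidates of hsp-4, in an intron and in the 3′ UTR, had signals of 28.9 and 20.7. The −log10 q-value of the strongest one in the pooled list was 2.89, where the list reaches 4.18. The signal at hsp-3 was 17.9 times that at hsp-4 in the pooled list, 17.8 times in replicate 1 and 22.4 times in replicate 2. In replicate 2 the hsp-4 summit had a −log10 q-value of 0.684. Its signal there was near the median of 16.0 over all 30000 regions of that replicate, so the ratio in replicate 2 rests on a weak region. Each of the 165 overlapping 36-base stretches in the 200 bp around the hsp-3 summit occurred once in the genome, as did each of the 165 around the hsp-4 summit. These values give the strength of a region relative to the control, not expression of either gene, and a candidate under the threshold does not show that the receptor was absent from hsp-4.

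atfs-1 (WBGene00013878, V, 14193663 to 14197700, plus strand), the mitochondrial regulator, had a thresholded summit 64 bp upstream of its first start (region 14193484 to 14193732, signal 355, rank 1172). The signal was 224 in replicate 1 and 132 in replicate 2, with ranks of 1213 and 1132, the closest pair of ranks in proportion among the 7 genes. Of the genes with a thresholded summit, 25.6% had a stronger one. The second candidate of atfs-1 lay 1293 bp inside the gene with a signal of 62.3, and it ranked 11723 in replicate 1 and 6121 in replicate 2. The remaining 4 had signals from 20.5 to 34.0.

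In all, the windows of the 7 genes held 35 candidate summits, and 28 of them were below the threshold. These 28 had signals from 20.01 to 68.9 with a median of 30.0, against a median of 27.7 over all 23577 candidates below the threshold. Of the 28, 9 lay upstream, 10 in coding exons, 7 in introns and 2 in 3′ UTRs. With replicate summits paired one to one within 200 bp, all 7 thresholded summits had a partner among the 30000 regions of each replicate. Of the 28 weak ones, 11 had a partner in both replicates, 15 in only 1 and 2 in neither. The pooled list was drawn from these replicates and its thresholded part was kept for reproducibility. Partners of thresholded summits are therefore largely built in, and the difference from the weak ones is no independent support. The same counts over all regions are not given here.

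The 200 bp around the 7 thresholded summits and around the best hsp-4 candidate were searched for 7 motifs on both strands. A match is a description of letters and shows no binding. Matches that begin downstream of a start (CCACG at xbp-1 and one at hsp-3, GATAA at atfs-1) lie outside the printed stretches. The core nuclear receptor motif AGGTCA was in 0 of these 8 windows and in 8.39% of all 6423 thresholded windows. TGACGTG, the core of the unfolded protein response element recognised by XBP-1 and ATF6 in mammals, was in 2 of the 8 windows and in 3.21% of all. The windows were those of hsp-3, with the motif beginning 132 bp upstream of the start, and hsp-4, with its reverse complement CACGTCA beginning 83 bp upstream. The same core thus stood near both BiP genes, the strongest and the weakest of the 7 by signal. xbp-1 held the cyclic AMP response element TGACGTCA, beginning 73 bp upstream, a motif in 1.74% of all windows. CCACG, one end of the mammalian ER stress response element, was in 3 of the 8 windows (the weaker ire-1 summit, xbp-1 and hsp-3) and in 23.3% of all, and it overlapped no other match. GATAA, the GATA factor site, was in 4 of the 8 windows and in 43.7% of all. The heat shock unit pair TTCNNGAA and the C/EBP-type site TTGCGCAA were in 0 of the 8, against 8.36% and 0.638% of all. The window at atf-6 held none of the 7 motifs. The median GC content over all thresholded windows was 41.0%. It was 62.5% at hsp-3, 56.0% at atf-6, 50% at atfs-1, 48.5% at xbp-1, 44.0% at hsp-4 and 33.5% at pek-1. At ire-1 it was 39.5% around the stronger summit and 52.5% around the weaker one.

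Other genes of these pathways were counted from 3 lists of genes chosen by their known roles. Earlier results of these data were known when the lists were made, so the counts are descriptions and not independent of the data. The part of window length in these counts was not tested. Among 7 partners of the ER sensors, 5 (71.4%) had a thresholded summit in the gene or within 3 kb upstream, to be read against the 31.9% of all protein-coding genes. The median strongest signal of those 5 was 193, below the 208 of all protein-coding genes with a thresholded summit. The strongest were at atf-4, a transcription factor translated when eIF2α is phosphorylated (signal 439, rank 793, 120 bp upstream, ranks of 582 and 1511 in replicates 1 and 2), at gcn-1, an activator of the eIF2α kinase GCN-2 (381, rank 1030, 20210 bp inside the gene), and at eif-2alpha, which encodes eIF2α itself (193, rank 2769). The eif-2alpha summit lay 1782 bp upstream, also in the windows of phb-1, rpl-27A and rplp-1. The atf-4 summit lay in the windows of T04C10.11 and T04C10.3 too. The archease gene arch-1 had no candidate, and the strongest at hpl-2, a heterochromatin protein gene, had a signal of 41.7; both were named after their values were seen. With the promoter window only, 3 of the 7 had a thresholded summit, against 20.6% of all protein-coding genes.

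ER folding and degradation genes had a thresholded summit in 15 of 20 cases (75.0%, against the 31.9% of all protein-coding genes). Their median strongest signal was 264, against the 208 of all protein-coding genes with a thresholded summit. They were led by crt-1, the calcium-binding chaperone calreticulin (signal 833, rank 181, 269 bp upstream), sel-11, a ubiquitin ligase of ER-associated degradation (766, rank 240), and pdi-3, a protein disulfide isomerase (682, rank 323, 662 bp upstream). The sel-11 summit lay 2747 bp upstream and also in the windows of F55A11.1, T04F3.4 and syx-5, and the pdi-3 summit in that of ubql-1. The 5 genes without one were dnj-27 and der-2, with no candidate, and pdi-1, ero-1 and stc-1, whose strongest candidates had signals of 72.9, 67.4 and 76.3. These 5 were named after their values were seen. With the promoter window only, 11 of the 20 had a thresholded summit, against 20.6% of all protein-coding genes.

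Mitochondrial response genes had a thresholded summit in 10 of 15 cases (66.7%, against the same 31.9%), with a median strongest signal of 263, against the same 208. The strongest lay at hsp-60, the mitochondrial chaperonin (signal 1242, rank 53, 610 bp upstream, also in the window of Y22D7AL.10), at jmjd-1.2, a histone demethylase that promotes the response (705, rank 298, 454 bp upstream), and at hsp-6, the mitochondrial HSP70 (455, rank 756, 405 bp upstream). The windows of F29B9.11, col-111 and mrps-21 held the jmjd-1.2 summit too, and C37H5.5 the hsp-6 summit. The 5 genes without a thresholded summit, also named after their values were seen, were haf-1 (53.9), jmjd-3.1 (51.4), lonp-1 (22.5), lin-65 (19.3) and met-2 (19.3), with the signal of the strongest candidate in parentheses. With the promoter window only, 9 of the 15 had a thresholded summit, against 20.6% of all protein-coding genes. The genes closest to hsp-3 in pooled signal of their strongest summit, over 1 pooled list of 2 samples, were nspc-17 and nspc-19, which share a summit of signal 1036, and aagr-3, cal-7 and drap-1, which share one of 1030.

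**Figure D4:**
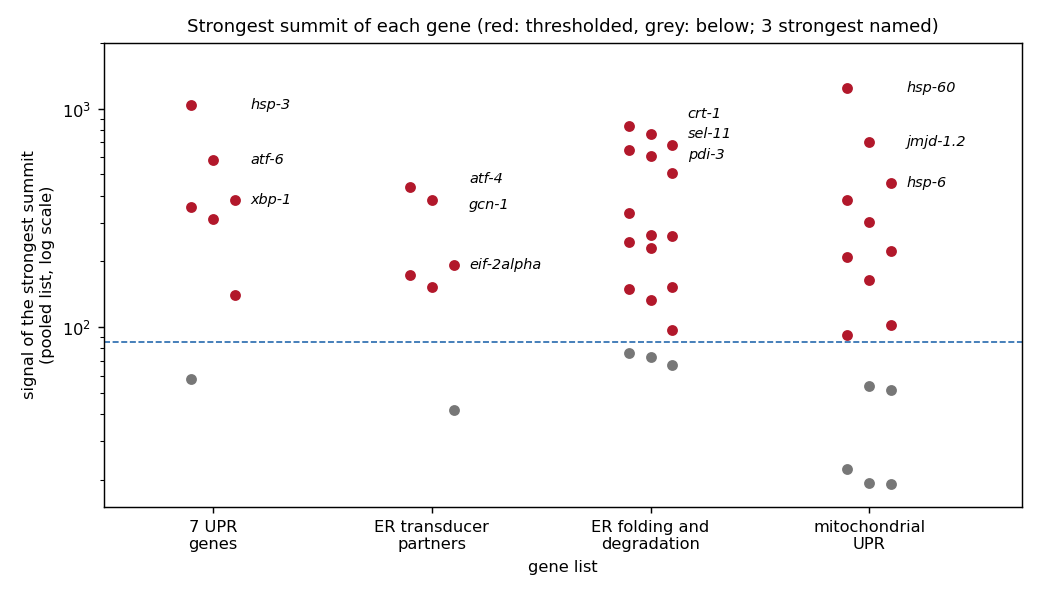
Pooled signal of the strongest summit (log scale) of each of the 7 genes and of each gene of the 3 lists, 1 point per gene. Red points are thresholded summits, grey points candidates below the dashed line of the lowest thresholded signal, and the 3 strongest of each column are named; arch-1, dnj-27 and der-2 have no candidate and no point.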

How the data were processed

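The deposited data were lists of regions in narrowPeak form from both replicates and from the replicates pooled, on builds ce10 and ce11. Per the notes deposited with the samples, candidate lists were made from each alignment and a control alignment, and the thresholded list from the candidate lists. The aligner, caller and threshold were not given in the sources used here. The signal of a region (column 7) and its −log10 q-value (column 9) are the authors' deposited values, and each summit is the region start plus the deposited offset. No read totals are given, so depth is unknown, and no interval was computed.

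The ce11 lists were used with Ensembl release 115 gene models on WBcel235, the same build, and RefSeq symbols. Lists were ranked by signal. A pooled summit matched a replicate within 200 bp. With 1 group there was no test between groups and no p-value: counts are descriptions. Summit assignment, matching and motif search recovered every planted item in simulated data. Python 3.11.15 and matplotlib 3.10.9 were used. The genes and lists were chosen with earlier results of these data known. Beside the 7 genes, the text names the 3 strongest genes of each list, genes that share a summit and the genes nearest to hsp-3 in signal.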

Additional observations from a re-analysis of the deposited data

How the results depend on the processing

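Leaving out a replicate means here that the 6423 strongest candidate regions of the other one were taken, with no analysis of reproducibility. The count of genes with a thresholded summit was 6 of 7 with 1000 or 5000 bp upstream, with the promoter window and with whole regions in place of summits. Counted in this way it was also 6 without either replicate. It was 5 with the 3211 strongest thresholded summits, where ire-1 was lost, and 7 with all candidates. Summits in the windows numbered 8 to 10 among the 6423 strongest regions of 1 replicate and 35 among all candidates, where the main thresholded count was 7. All 7 had a ce10 region of equal width and signal. Matched among the 6423 strongest regions of both replicates, within 200 bp, were 6 of 7; it was 6 within 100 bp, 7 within 500 bp and 7 among all 30000 regions of each replicate. The share of all protein-coding genes, 31.9% in the main setting, was 19.6% with those 3211 and 65.6% with all candidates. It was 23.1% with 1000 bp upstream, 38.4% with 5000 bp upstream and 20.6% with the promoter window. With whole regions the share was 33.2%, and without a replicate 31.5 to 32.0%. With the promoter window the partner list fell to 3, the ER folding and degradation list to 11 and the mitochondrial list to 9. Without a replicate the lists had 5 to 6, 14 to 16 and 8 to 9 genes, in the order given above. The summits counted at hsp-4 were 0 in each alternative except all candidates. In replicate 2 the summit matched to the strongest pooled one ranked 707 at atf-6 and 13158 at hsp-4. Depth is unknown, so weak candidates show neither presence nor absence of binding.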

Other observations

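Thresholded regions also lay just outside the windows. A summit 3566 bp upstream of ire-1, 566 bp beyond the limit, had a signal of 554 and rank 497, higher than both thresholded summits inside the window. Its nearest other start, 1484 bp away, was that of ulp-4, and a further summit 4844 bp upstream of ire-1 (signal 122) lay 206 bp upstream of ulp-4. Downstream of xbp-1, a thresholded summit lay 150 bp past the annotated end (signal 137, rank 4013). One lay 101 bp past the end of atfs-1 (signal 97.7, rank 5666) and one 537 bp past the end of pek-1 (signal 140, rank 3926). The nearest other start to the atfs-1 one, that of T16A9.3, was 7713 bp away. In replicate 2, ire-1 had a summit 1028 bp upstream (replicate signal 34.7, rank 5747) with no pooled candidate within 200 bp. A weak pooled candidate 827 bp upstream (signal 21.6) lay just beyond that limit, so the lack of a match rests on the limit chosen.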
